A study of Arabidopsis thaliana with 11 samples.

Results

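The 49 genes described here encode the nuclear transport machinery of Arabidopsis thaliana. They comprise 30 subunits of the nuclear pore complex, 14 karyopherins (the importins and exportins that carry cargo through the pore) and 5 genes of the Ran system. They were listed by locus code from what their products are known to do; the rule uses no measured value, though results of these data were known when it was written. Of the 49 genes, 48 are in the count table, which holds 22160 genes, and RAN2 is found in the transcript table only. All 48 passed the filter on low counts and were tested among 21580 genes.

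The nuclear pore complex is a ring-shaped channel in the nuclear envelope. An outer ring and an inner ring form its frame, subunits rich in phenylalanine-glycine repeats fill the channel, and a basket and filaments extend from it to either side. Importins bring proteins into the nucleus and exportins take proteins and some RNAs out, and the GTPase Ran sets the direction because its GTP-bound form predominates inside. In plants several of these genes are known from immunity: NUP96 (MOS3), NUP88 (MOS7), IMPA3 (MOS6) and MOS14 were found as genes needed for the autoimmunity of the snc1 mutant.

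RNA was measured in whole seedlings of 10 days, grown without treatment on medium with sucrose, in 4 genotypes. These were the xpo4-2 cpr5 double mutant (n = 3), cpr5 (n = 3; the labels name no allele), xpo4-2 (n = 2) and Col-0 wild type (n = 3). CPR5 is itself a pore component that spans the membrane, XPO4 is the transport receptor exportin-4, and neither is among the 49. The labels do not say that replicates came from separate sowings, so p-values here may measure technical spread alone. The title of the series names the effect of XPO4 on immunity in cpr5 as its subject, so the double mutant was set against cpr5 first.

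Library totals were 16922732 to 23088104 counts, which follow the TPM so closely that they may be rounded estimated counts and not counts of single reads. XPO4 had 2.09, 0 and 2.27 CPM in the double mutant, against 22.9, 18.3 and 27.7 CPM in cpr5, where CPM is the count relative to library size after scaling with TMM factors. It had 1.00 and 4.80 CPM in xpo4-2, against 19.6, 21.3 and 23.5 CPM in wild type. CPR5 RNA had 15.5, 17.8 and 15 CPM in cpr5, against 8.08, 11.4 and 13.3 CPM in wild type, so its level does not check that label. Markers of both shoot and root were present in all genotypes. All 8 photosynthesis markers fell in the double mutant against cpr5, to sums of 6224 to 9250.2 CPM, against 27375 to 29217 CPM in cpr5 and 20970.3 to 33495 CPM in wild type. Of 10 markers of dividing cells, 4 fell, and their sums were 95.1 to 117.4 CPM in the double mutant, against 121.5 to 151.3 CPM in cpr5 and 104.1 to 122.2 CPM in wild type. Of 8 root markers, 2 rose and 0 fell. Their log2 fold changes went both ways, with 5 above 0 and the lowest at -1.65. Root sums were 1004.3 to 1659.9 CPM in the double mutant, 1371.5 to 1425.2 CPM in cpr5 and 664.8 to 1549.7 CPM in wild type. In xpo4-2 the sums were 33876.2 to 41889.7 CPM for photosynthesis, 145.9 to 165.7 CPM for dividing cells and 807.3 to 1558.5 CPM for root markers. Against wild type, 5 of the 8 root markers rose in the double mutant (median log2 fold change 2.5), all 8 photosynthesis markers fell (median -1.98) and 1 of the 10 markers of dividing cells fell. The 48 genes together summed to 2101.9 to 2192.7 CPM in the double mutant and 2005.5 to 2069.6 CPM in cpr5. The part of these shifts in the results below was not tested, and in whole seedlings fewer cells of a type and less RNA per cell cannot be told apart.

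Levels between genes were compared per length, as gene TPM (a length-scaled share of all transcripts, summed over the transcript models of a gene). The most abundant of the 49 in wild type were the Ran GTPases RAN1 at 120.8 ± 36.3 TPM and RAN3 at 119.9 ± 1.15 TPM (SD, n = 3), and these did not differ beyond their spread. The importin alpha genes IMPA1 (54.8 ± 6.85 TPM), IMPA4 (36.8 ± 4.68 TPM) and IMPA2 (36.4 ± 3.32 TPM) followed, then the importin beta gene KPNB1 (33.8 ± 1.72 TPM) and CAS (30.9 ± 8.28 TPM), and from IMPA4 to CAS neighbours overlapped. These genes stood above the outer-ring subunits in this list, which ran from 2.11 ± 0.565 TPM for NUP133 to 14.0 ± 2.13 TPM for SEH1. NUP98b, a channel subunit (1.33 ± 1.18 TPM), and NUP214, a filament subunit (1.44 ± 1.15 TPM), had the lowest means in wild type and overlapped; each had 1 library far below the other two, at 0.0548 TPM for NUP98b and 0.123 TPM for NUP214. RAN2 was listed at 0 in 2 wild-type libraries.

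RAN3 and RAN1 led in the double mutant too. CAS ranked 24 of 49 in the double mutant (13.7 ± 0.152 TPM), against 7 in wild type. NUP98b ranked 31 in the double mutant (10.4 ± 2.10 TPM), against 49 in wild type, where its last place rests on replicate 1. In wild-type replicates 2 and 3 it was still low, at 1.54 and 2.39 TPM, below NUP133 at 2.19 and 2.62 TPM. XPO1A ranked 5 in the double mutant (50.4 ± 5.86 TPM), against 10 in wild type (18.8 ± 12.1 TPM, with 1 library far below the others).

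**Figure D1:**
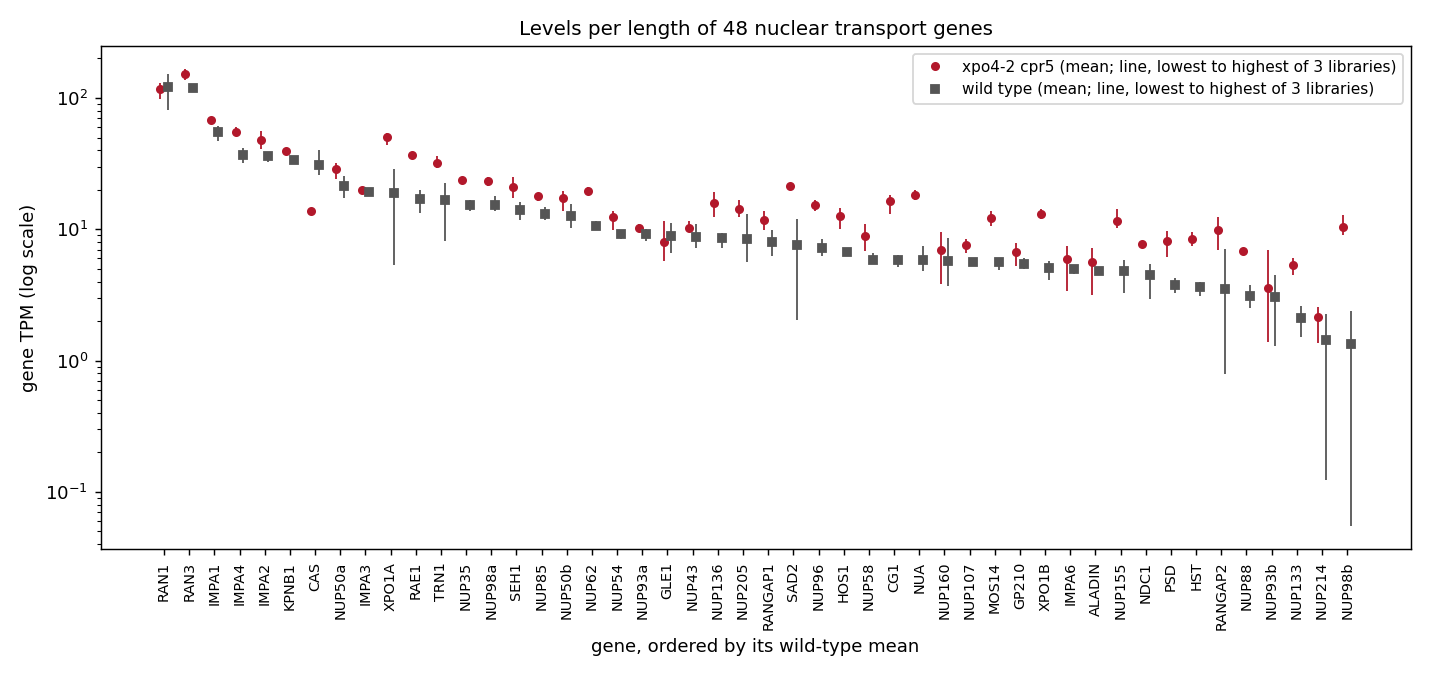
Gene TPM on a log axis for 48 of the 49 genes (RAN2 left out), ordered by the wild-type mean; symbols are means and lines run from the lowest to the highest of 3 libraries, for the double mutant and wild type. RAN1 and RAN3 stand at the top, CAS is lower in the double mutant (13.7 against 30.9 TPM) and NUP98b higher (10.4 against 1.33 TPM).

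Fewer of the 48 than of all genes varied widely within a genotype. The highest library was over 3 times the lowest for 1 of 48 genes in the double mutant (NUP93b), 0 in cpr5, 0 in xpo4-2 and 6 in wild type. These are 2.08%, 0%, 0% and 12.5% of the 48, against 12.1%, 7.36%, 8.63% and 20.3% of all genes tested. In wild type the ratio reached 37.3 for NUP98b and 19.9 for NUP214. In wild type, NUP98b, SAD2, TRN1 and XPO1A lay over 2-fold below both other libraries in replicate 1, and NUP93b, NUP214 and RANGAP2 did so in replicate 3. RANGAP2 also lay over 2-fold above both other libraries in replicate 2.

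Of the 48 genes, 7 rose in the double mutant against cpr5 and 2 fell. The 7 that rose were 5 pore subunits (NUP133, NUP96, NUP155, NUA and NUP88) and the exportins HST and PSD, and the 2 that fell were the importin alpha IMPA6 and the exportin CAS. Changes were modest, between 1.47-fold and 1.80-fold for the genes that rose. A gene passed where the Benjamini-Hochberg adjusted p of edgeR's quasi-likelihood test, taken over all 21580 genes, was under 0.05. The 9 genes are 18.8% of the 48, and 21.7% of all genes tested passed, so the set as a whole was called about as often as genes at large. By direction, 14.6% of the 48 rose, against 8.82% of all genes, and 4.17% fell, against 12.9%. Leaving out 1 of the 6 libraries compared left 2 to 4 genes that rose and 0 or 1 that fell. The share that rose was then 4.17%, against 5.45% of all genes, without double mutant replicate 3, and 4.17%, against 3.96%, without cpr5 replicate 2. The median log2 fold change was 0.16 over the 48 and 0.01 over all genes, and the median size of change was 0.21 and 0.44.

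The split depends on the scaling. With library totals and no further scaling, the median of all genes moved to 0.27, and 14 of the 48 rose and 0 fell. That is 29.2% higher, against 19.7% of all genes. On gene TPM with limma the median moved to 0.31, and 18 rose and 0 fell. That is 37.5% higher, against 24.8% of all genes. Among all genes called, the share that rose was 40.7% with TMM factors, 70.4% with library totals and 76.0% on TPM. Relative to all genes the median of the 48 was higher by 0.14, 0.14 and 0.15 under these 3 scalings. Scaling shifts all genes of a comparison about alike, so this difference could hardly move and its agreement is no separate check.

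**Figure D2:**
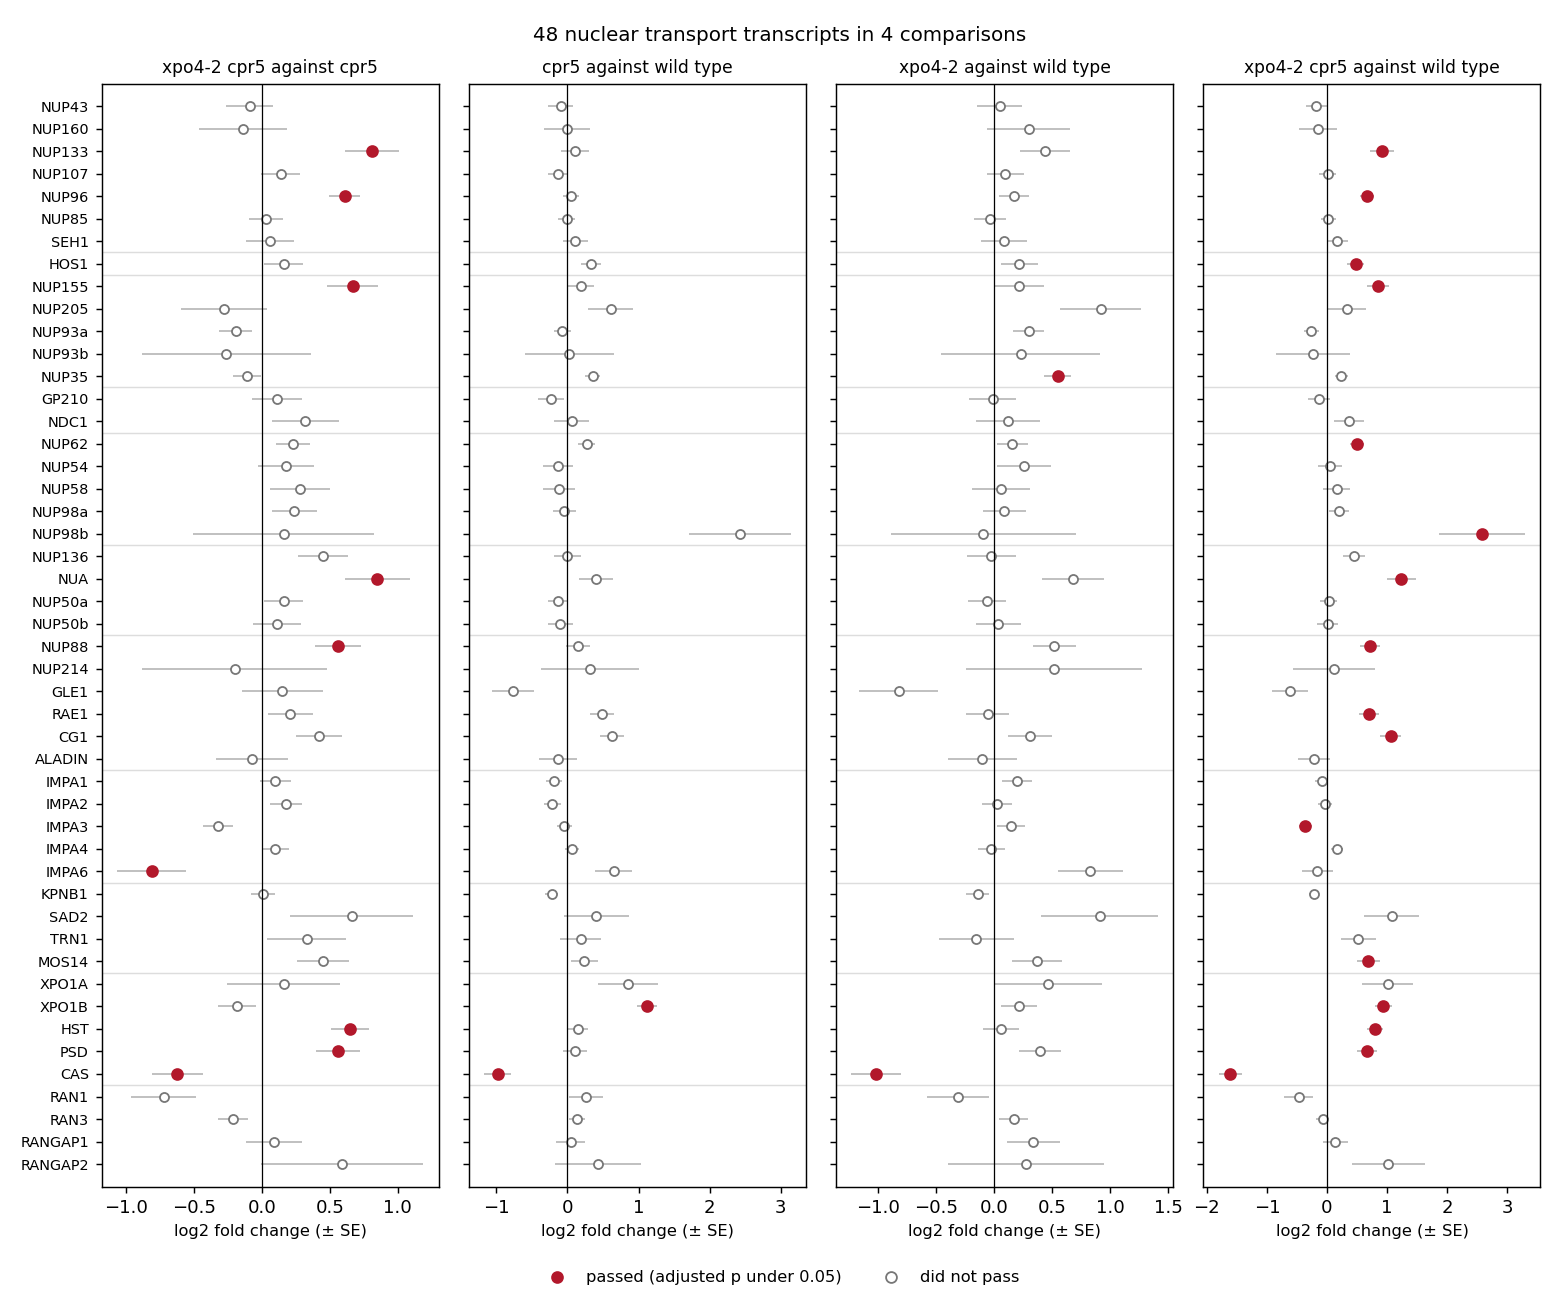
Log2 fold changes (± SE) of 48 nuclear transport genes in 4 comparisons, ordered by role with grey lines between roles; filled red points passed at an adjusted p under 0.05 and open points did not. In the double mutant against cpr5 the 9 filled points lie between -0.81 and 0.85, and CAS lies left of 0 in each of the 4 panels.

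The outer ring, or Y complex, is the main scaffold of the pore. Of its 7 subunits in this list, NUP133 and NUP96 rose in the double mutant against cpr5 and the other 5 did not pass. NUP133 (AT2G05120, chr2:1841876-1846949, TAIR10.1) had 17.7, 15.2 and 18.7 CPM in the double mutant, against 9.93, 8.75 and 10.6 CPM in cpr5. It had 12.1 and 12.4 CPM in xpo4-2 and 6.81, 9.62 and 10.7 CPM in wild type, and the lowest double mutant library lay above all 8 others. Its log2 fold change against cpr5 was 0.81 (SE 0.195, adjusted p = 0.0144), which passed the threshold no longer without cpr5 replicate 2 (adjusted p = 0.0675) or without double mutant replicate 3 (adjusted p = 0.0502).

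NUP96 (AT1G80680, chr1:30323882-30328880) had 44.0, 42.4 and 46.3 CPM in the double mutant, against 29.2, 27.7 and 30.1 CPM in cpr5. It had 30 and 33.3 CPM in xpo4-2, and 25.8, 27.0 and 31.4 CPM in wild type. The double mutant stood apart and the other 3 genotypes overlapped. The log2 fold change against cpr5 was 0.61 (SE 0.115, adjusted p = 0.00465), and NUP96 passed in all 20 alternatives run, with adjusted p between 1.01e-05 and 0.0273. NUP160, NUP107, NUP85, SEH1 and NUP43, the other ring subunits in this list, had log2 fold changes between -0.14 and 0.14. SEC13A and SEC13B, ring subunits outside this list, had log2 fold changes of -0.03 to 0.10 and did not pass. HOS1, a ubiquitin ligase attached to the ring, had a log2 fold change of 0.16 (adjusted p = 0.473).

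The inner ring holds the frame to the membrane. NUP155 (AT1G14850) had 42.6, 45.8 and 56.7 CPM in the double mutant, against 31.9, 28.5 and 31.1 CPM in cpr5. It had 30.7 and 31.7 CPM in xpo4-2, and 18.9, 30.4 and 31.0 CPM in wild type, so the double mutant lay above the rest without overlap. Its log2 fold change against cpr5 was 0.67 (SE 0.187, adjusted p = 0.0287), and it passed no longer without any 1 of 5 of the 6 libraries compared, with adjusted p up to 0.105. NUP205, NUP93a, NUP93b and NUP35 had log2 fold changes between -0.28 and -0.11, and none of the 4 passed. The membrane subunits GP210 and NDC1 and the 5 channel subunits, with log2 fold changes between 0.11 and 0.32, did not pass.

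In the basket, NUA, the plant counterpart of the filament protein TPR, rose. NUA (AT1G79280) had 100.5, 94.1 and 102.8 CPM in the double mutant, against 61.6, 45.2 and 58.5 CPM in cpr5. It had 43.6 and 89.9 CPM in xpo4-2, a wide pair, and 36.2, 37.9 and 51.3 CPM in wild type. Its log2 fold change against cpr5 was 0.85 (SE 0.241, adjusted p = 0.0301), and leaving out any of the 6 libraries compared ended the call, with adjusted p up to 0.118. The other basket genes, NUP136, NUP50a and NUP50b, had log2 fold changes between 0.11 and 0.45 and did not pass. NUA overlaps a gene on the other strand over 709 bases (5.05% of its length), and the sources used here do not say whether the counting used strand.

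On the cytoplasmic side NUP88 rose, the subunit that in Arabidopsis helps to hold defence regulators such as NPR1 in the nucleus. NUP88 (AT5G05680) had 13.7, 14.2 and 14.2 CPM in the double mutant, against 9.18, 10.0 and 9.30 CPM in cpr5. It had 13.1 and 11.6 CPM in xpo4-2, and 7.29, 8.54 and 9.94 CPM in wild type, so xpo4-2 lay between the double mutant and cpr5. Against cpr5 the log2 fold change was 0.56 (SE 0.167, adjusted p = 0.0355). It passed no longer without any 1 of the 6 libraries compared, with adjusted p up to 0.108. NUP214, GLE1, RAE1, CG1 and ALADIN, with log2 fold changes between -0.20 and 0.42, did not pass.

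**Figure D3:**
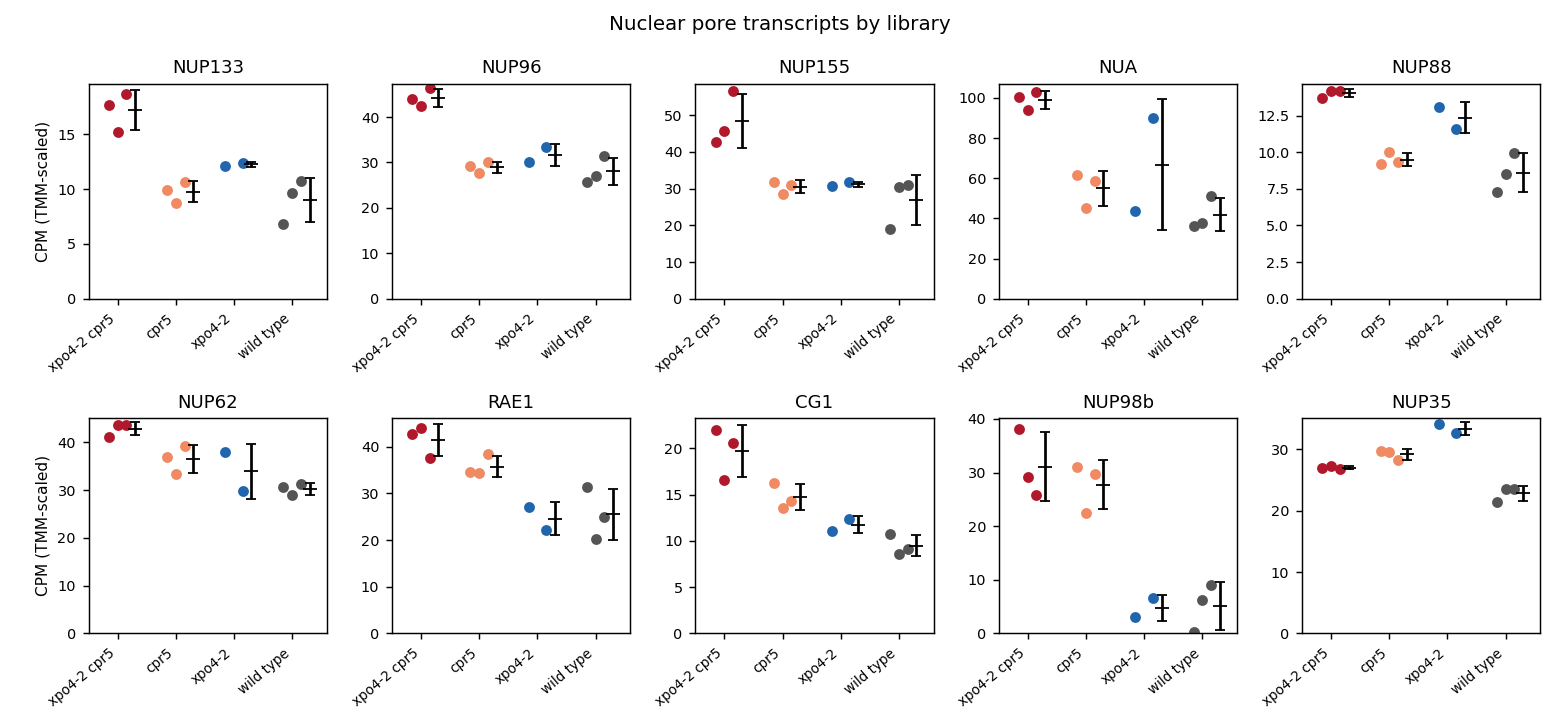
TMM-scaled CPM of 10 pore subunits in each library; black bars are means ± SD (n = 3, and 2 for xpo4-2), and each vertical axis starts at 0. For NUP133, NUP96 and NUP155 the lowest double mutant library lies above the other 8 libraries, and NUP98b is at 22.5 CPM or more in the double mutant and cpr5 and at 9 CPM or less in xpo4-2 and wild type.

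Against wild type, the double mutant had 14 of 48 genes higher and 2 lower. The 16 genes are 33.3% of the 48, beside 37.1% of all genes tested. By direction 29.2% of the 48 rose, against 18.1% of all genes, and 4.17% fell, against 19.1%. The median log2 fold change was 0.17 over the 48 and 0.03 over all genes. With library totals 22 rose and 1 fell, and on gene TPM 30 rose and 1 fell, where the medians of all genes were 0.32 and 0.41. The shares that rose were 45.8% and 62.5%, against 30.1% and 37.2% of all genes. This comparison and those of the single mutants share the wild-type libraries, and the comparisons that hold the double mutant share its 3 libraries.

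Of the 14 genes that rose against wild type, 10 were pore subunits. NUP133 (log2 fold change 0.92), NUP96 (0.66), NUP155 (0.85), NUA (1.24, SE 0.244, adjusted p = 0.00256) and NUP88 (0.71) were also those that rose against cpr5. The other 5 were HOS1, NUP62, NUP98b, RAE1 and CG1. RAE1, which acts in mRNA export, had 42.7, 44.0 and 37.5 CPM in the double mutant and 34.5, 34.3 and 38.4 CPM in cpr5. It had 27.1 and 22.1 CPM in xpo4-2, and 31.3, 20.3 and 24.9 CPM in wild type. CG1, a filament subunit, had 22.0, 16.6 and 20.6 CPM in the double mutant and 16.3, 13.6 and 14.3 CPM in cpr5. It had 11.1 and 12.4 CPM in xpo4-2, and 10.8, 8.54 and 9.16 CPM in wild type, so its levels fell into the order double mutant, cpr5, xpo4-2, wild type without overlap. The log2 fold change of the double mutant against wild type was 0.70 for RAE1 (SE 0.165, adjusted p = 0.00728) and 1.06 for CG1 (SE 0.171, adjusted p = 0.000866). For CG1, cpr5 against wild type gave 0.63 (SE 0.171, adjusted p = 0.0529), which did not pass.

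HOS1 rose against wild type by a log2 fold change of 0.48 (adjusted p = 0.0204), and the call ended without wild-type replicate 3 (adjusted p = 0.0580) or double mutant replicate 1 (0.0668) or 3 (0.0703). NUP62, a channel subunit, rose by 0.50 (SE 0.122, adjusted p = 0.00885), and a gene on the other strand covers 1323 bases of it (34.1% of its length). NUP96 and RAE1 are neighbours that start head to head on chromosome 1 and overlap by 21 bases.

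NUP98b (AT1G59660) showed a large difference between genotypes with and without the cpr5 mutation. It had 38.2, 29.2 and 25.9 CPM in the double mutant and 31.1, 22.5 and 29.7 CPM in cpr5. It had 3.11 and 6.53 CPM in xpo4-2, and 0.241, 6.19 and 9 CPM in wild type, and the first 6 libraries did not overlap the other 5. The log2 fold change was 2.58 in the double mutant against wild type (SE 0.718, adjusted p = 0.0165) and 2.68 against xpo4-2 (SE 0.843, adjusted p = 0.0365). It was 2.42 in cpr5 against wild type (SE 0.716, adjusted p = 0.0732), which did not pass. The call of the double mutant against wild type was not kept under all alternatives. The call against xpo4-2 ended without any 1 of the 8 mutant libraries, with adjusted p up to 0.217. Its paralogue NUP98a, which shares 68.3% of aligned coding bases, had 70.1, 78.6 and 77.7 CPM in the double mutant, 76.7, 65.0 and 50.2 CPM in cpr5, 61.3 and 78.4 CPM in xpo4-2, and 63.1, 60.1 and 73.9 CPM in wild type. NUP98a did not pass in any of the 6 comparisons.

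The exportins carry different cargo: XPO1A and XPO1B carry proteins with a leucine-rich signal, HST acts in the microRNA pathway, PSD carries tRNA and CAS returns importin alpha to the cytoplasm. HST and PSD rose in the double mutant against cpr5, CAS fell and the XPO1 genes did not pass. HST (AT3G05040, chr3:1401171-1408302) had 26.9, 25.0 and 29.1 CPM in the double mutant, against 15.3, 17.8 and 18.5 CPM in cpr5. It had 15.4 and 16.9 CPM in xpo4-2, and 13.9, 16.5 and 16.0 CPM in wild type. The double mutant stood apart while the other 3 genotypes overlapped. Against cpr5 the log2 fold change was 0.65 (SE 0.139, adjusted p = 0.00819), and HST passed in all 20 alternatives run, with adjusted p between 0.000144 and 0.0393. Against wild type it was 0.80 (adjusted p = 0.00127) and against xpo4-2 0.74 (adjusted p = 0.00556; 0.0578 without xpo4-2 replicate 1).

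PSD (AT1G72560) had 25.2, 19.1 and 26.7 CPM in the double mutant, against 14.2, 18.1 and 15.9 CPM in cpr5. It had 18.8 and 20.6 CPM in xpo4-2, and 13.8, 14.9 and 16.0 CPM in wild type, so the double mutant and xpo4-2 overlapped. Against cpr5 the log2 fold change was 0.56 (SE 0.164, adjusted p = 0.0340), which 5 of the 6 single-library omissions ended, with adjusted p up to 0.122.

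CAS (AT2G46520, chr2:19096413-19100373) had 42.2, 44.1 and 39.4 CPM in the double mutant, 67.9, 68.0 and 57.6 CPM in cpr5, 72.0 and 55.2 CPM in xpo4-2, and 110.3, 169.3 and 103.2 CPM in wild type. The double mutant was lowest, wild type was highest, and cpr5 and xpo4-2 overlapped between them. CAS fell in cpr5 against wild type by 0.98 on the log2 scale (SE 0.188, adjusted p = 0.0134) and in xpo4-2 against wild type by 1.01 (SE 0.215, adjusted p = 0.0359). It fell in the double mutant by 1.61 against wild type (SE 0.191, adjusted p = 0.00014) and by 0.62 against cpr5 (SE 0.188, adjusted p = 0.0377). The interaction, or how far adding xpo4-2 acted differently in cpr5 than in wild type, was 0.38 (SE 0.281, adjusted p = 0.457). The fall of the double mutant against wild type passed in all 20 alternatives. The fall against cpr5 was -0.26 on TPM (adjusted p = 0.266) and passed no longer without any 1 of the 6 libraries compared (adjusted p up to 0.116). The call in cpr5 ended without cpr5 replicate 1 (0.0542) or 3 (0.0659), and the call in xpo4-2 ended without 8 of the 11 libraries in turn, with adjusted p up to 0.216 without xpo4-2 replicate 2.

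XPO1B (AT3G03110, chr3:708698-717093) was the 1 gene of the 48 that rose in cpr5 against wild type in the fit of all libraries. Without wild-type replicate 1 there were 3 (6.25%, against 3.27% of all genes), and 2 without replicate 3 (4.17%, against 5.92%). DESeq2 gave 3 (6.25%, against 7.04%). It had 38.3, 37.1 and 30.4 CPM in the double mutant, 42.2, 38.6 and 39.2 CPM in cpr5, 22.2 and 20.7 CPM in xpo4-2, and 15.6, 20.1 and 19.5 CPM in wild type. The libraries with the cpr5 mutation did not overlap those without it. The log2 fold change in cpr5 was 1.12 (SE 0.141, adjusted p = 0.00191), and the call held in all 20 alternatives. For the double mutant it was 0.94 against wild type (SE 0.141, adjusted p = 0.00053) and 0.72 against xpo4-2 (SE 0.158, adjusted p = 0.00683; 0.0506 without xpo4-2 replicate 2). Against cpr5 it was -0.18 (adjusted p = 0.392), and this sign turned on TPM and with library totals.

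XPO1A (AT5G17020), which shares 84.0% of aligned coding bases with XPO1B, had 160.4, 137.5 and 153.0 CPM in the double mutant and 134.3, 126.4 and 142.5 CPM in cpr5. It had 80.8 and 125.5 CPM in xpo4-2, and 22.8, 91.6 and 109.5 CPM in wild type, where replicate 1 was far below. Its log2 fold change was 0.85 in cpr5 against wild type (SE 0.422, adjusted p = 0.272) and 1.01 in the double mutant against wild type (SE 0.423, adjusted p = 0.0853). The longest run of bases that both transcripts share is 44.

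**Figure D4:**
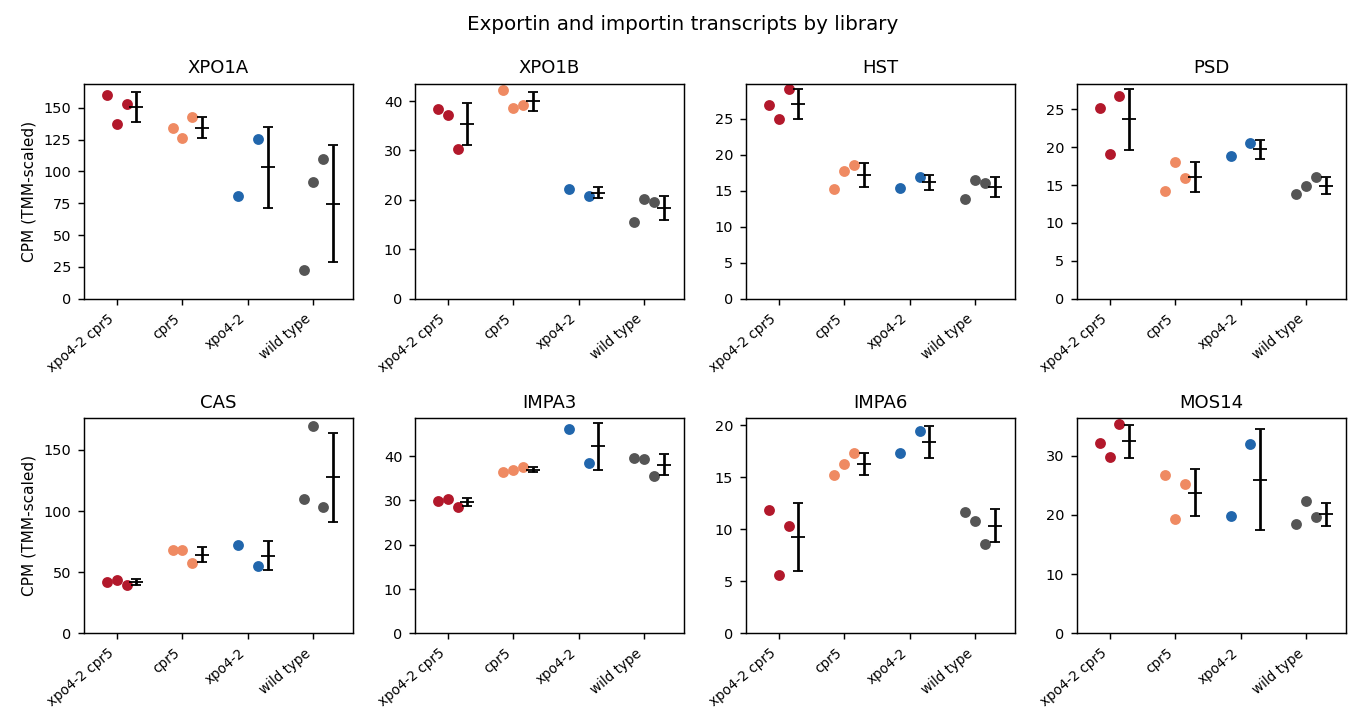
TMM-scaled CPM of 5 exportins and 3 importins in each library; black bars are means ± SD (n = 3, and 2 for xpo4-2), and each vertical axis starts at 0. CAS is at 39.4 to 44.1 CPM in the double mutant and at 103.2 to 169.3 CPM in wild type, and XPO1B is at 30.4 CPM or more in the 6 libraries with the cpr5 mutation and at 22.2 CPM or less in the other 5.

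Importin alpha proteins bind the import signal of a cargo and importin beta carries the pair. IMPA6 (AT1G02690) had 11.9, 5.58 and 10.3 CPM in the double mutant, against 15.2, 16.3 and 17.3 CPM in cpr5. It had 17.3 and 19.5 CPM in xpo4-2, and 11.7, 10.8 and 8.58 CPM in wild type. Both single mutants lay above both the double mutant and wild type. IMPA6 fell in the double mutant by 0.81 against cpr5 (SE 0.255, adjusted p = 0.0453) and by 0.98 against xpo4-2 (SE 0.279, adjusted p = 0.0233). Neither single mutant passed against wild type, with 0.65 in cpr5 (adjusted p = 0.164) and 0.83 in xpo4-2 (adjusted p = 0.143). The interaction was -1.63 (SE 0.378, adjusted p = 0.0252). The call against cpr5 was lost in 13 of 20 alternatives, with adjusted p up to 0.221, 0.121 without cpr5 replicate 3 and 0.0613 without wild-type replicate 2. The interaction was lost in 7 of 20, with adjusted p between 0.00196 and 0.0907 over them and up to 0.0774 without an xpo4-2 library.

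IMPA3 (AT4G02150) had 29.8, 30.4 and 28.6 CPM in the double mutant and 36.4, 36.9 and 37.6 CPM in cpr5. It had 46.0 and 38.5 CPM in xpo4-2, and 39.5, 39.4 and 35.4 CPM in wild type, so the double mutant lay below the other genotypes. IMPA3 fell in the double mutant against wild type by 0.36 (SE 0.110, adjusted p = 0.0246), but the value was 0.05 on TPM (adjusted p = 0.739) where all genes had a median of 0.41. Without wild-type replicate 1 or 2, or double mutant replicate 1 or 3, adjusted p was between 0.0592 and 0.0697. Against cpr5 the value was -0.32 (SE 0.110, adjusted p = 0.061), and 0.02 on TPM. IMPA3 overlaps another gene on its strand over 518 bases (16.5% of its length). IMPA1, IMPA2 and IMPA4 had log2 fold changes between 0.10 and 0.18 against cpr5 and did not pass.

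MOS14, a transportin that imports splicing factors rich in serine and arginine, had 32.1, 29.8 and 35.4 CPM in the double mutant and 26.7, 19.3 and 25.3 CPM in cpr5. It had 19.9 and 32.0 CPM in xpo4-2, and 18.4, 22.3 and 19.6 CPM in wild type. It rose by 0.69 on the log2 scale between the double mutant and wild type (SE 0.193, adjusted p = 0.0169), which ended without wild-type replicate 1 (0.0504) or double mutant replicate 3 (0.0564). Against cpr5 it was 0.45 (adjusted p = 0.12). KPNB1, importin beta itself, had 127.7, 125.0 and 122.2 CPM in the double mutant, against 124.6, 124.8 and 123.4 CPM in cpr5, with a log2 fold change of 0.01 (SE 0.0872). KPNB1 had 127.3 and 136.1 CPM in xpo4-2, and 144.6, 146.0 and 144.7 CPM in wild type. All mutant libraries thus lay below wild type, though KPNB1 did not pass against wild type in any mutant. SAD2 and TRN1 did not pass in any comparison.

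Ran is the GTPase that gives transport its direction, and RANGAP1 and RANGAP2 stimulate its GTP hydrolysis outside the nucleus. RAN1 and RAN2 lie side by side on chromosome 5, 238 bases apart on the same strand (chr5:6760094-6762330 and chr5:6762569-6764683), and RAN3 lies elsewhere on that chromosome. Their coding sequences are 666 bases each. RAN1 and RAN2 share 93.4% of bases, RAN1 and RAN3 86.9%, and RAN2 and RAN3 87.4%. The first 120 coding bases of each (RefSeq, TAIR10.1, 5′ to 3′) are given to show how close the copies are, with bases that differ from RAN1 in capitals, 8 in RAN2 and 11 in RAN3.
RAN1: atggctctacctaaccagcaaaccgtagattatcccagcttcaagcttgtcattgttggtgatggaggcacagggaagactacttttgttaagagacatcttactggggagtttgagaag
RAN2: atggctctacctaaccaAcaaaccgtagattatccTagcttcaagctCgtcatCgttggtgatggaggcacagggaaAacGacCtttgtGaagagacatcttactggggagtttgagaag
RAN3: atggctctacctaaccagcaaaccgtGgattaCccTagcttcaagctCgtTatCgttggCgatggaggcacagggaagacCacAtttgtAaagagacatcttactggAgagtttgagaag

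RAN2 was listed at 44.7 TPM in wild-type replicate 1 and at 0 in the other 10 libraries. In that library RAN1 was listed at 151.8 TPM, against 129.8 and 80.9 TPM in the other wild-type libraries. It was the one model of the 51 from these genes that reach 5 TPM to be listed at 0 and at 5 TPM or more within a genotype (1.96%, against 12.3% of all models). The longest run of bases shared by RAN1 and RAN2 transcripts is 65. The sources used here do not say how reads were divided between these copies, so the single copies are uncertain.

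RAN1 had 136.7, 139.6 and 98.6 CPM in the double mutant, against 202.4, 211.7 and 205.4 CPM in cpr5. It had 155.8 and 122.4 CPM in xpo4-2, and 225.1, 185.8 and 107.4 CPM in wild type, a spread that held the levels of all but 1 of the other libraries. The log2 fold change against cpr5 was -0.72 (SE 0.24, adjusted p = 0.0535), which did not pass. It passed with DESeq2 (adjusted p = 0.0209), with the 2 groups fitted alone (0.00734), with the replicate block (0.0237) and without wild-type replicate 1 (0.0283) or 3 (0.00824). RAN3 had 123.8, 107.1 and 107.9 CPM in the double mutant, 129.9, 136.0 and 125.5 CPM in cpr5, 147.5 and 119.4 CPM in xpo4-2, and 122.5, 118.9 and 113.3 CPM in wild type. Its log2 fold change against cpr5 was -0.21 (adjusted p = 0.219), a sign that turned on TPM and with library totals. The 3 copies together came to 296.0, 262.6 and 250.5 TPM in the double mutant and 273.6, 302.7 and 296.9 TPM in cpr5, which overlap. RANGAP1 and RANGAP2, with 0.09 and 0.59, did not pass.

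**Figure D5:**
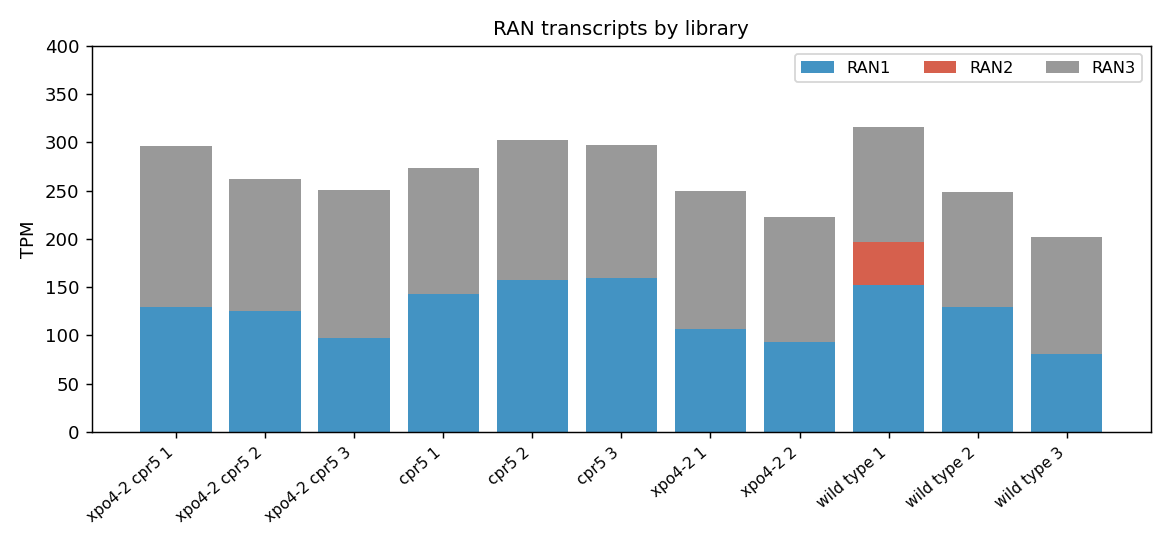
Stacked bars of RAN1, RAN2 and RAN3 TPM in each of the 11 libraries. RAN2 shows in wild-type replicate 1 alone, at 44.7 TPM, and RAN3 lies between 119.2 and 166.8 TPM throughout.

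In the single mutants few of the genes passed. In cpr5 against wild type XPO1B rose and CAS fell, which is 4.17% of the 48, against 6.64% of all genes (4.3% higher and 2.34% lower). In xpo4-2 against wild type NUP35 rose and CAS fell, again 4.17%, against 2.72% of all genes (0.755% higher and 1.96% lower). The median log2 fold change over the 48 was 0.09 in cpr5, against -0.01 over all genes, and 0.17 in xpo4-2, against 0.02. The median of the 48 thus lay above that of all genes by 0.1 and 0.15, as it did by 0.14 in the double mutant against wild type. NUP35, an inner-ring subunit, had 26.9, 27.3 and 26.8 CPM in the double mutant and 29.8, 29.6 and 28.2 CPM in cpr5. It had 34.1 and 32.6 CPM in xpo4-2, against 21.4, 23.6 and 23.5 CPM in wild type, and the 4 genotypes did not overlap. The log2 fold change in xpo4-2 was 0.55 (SE 0.116, adjusted p = 0.0350), which was lost in 13 of 20 alternatives, with adjusted p up to 0.169 without xpo4-2 replicate 1 and 0.261 with the 2 groups fitted alone. In the interaction 0 of 48 rose and 2 fell (NUP35 and IMPA6), 4.17% against 8.71% of all genes (3.2% higher and 5.51% lower). At an unadjusted p under 0.05 edgeR had 2 higher and 6 lower, and DESeq2 after adjustment had 0 and 2. Leaving out either xpo4-2 library or any cpr5 library left 0 and 0. For NUP35 it was -0.66 (SE 0.156, adjusted p = 0.0279), which was lost in 11 of 20 alternatives, with adjusted p up to 0.256 on TPM and 0.108 without xpo4-2 replicate 1.

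Against xpo4-2, the double mutant had 7 genes higher (NUP96, NUP155, NUP98b, RAE1, CG1, XPO1B and HST) and 3 lower (NUP93a, IMPA3 and IMPA6). These are 20.8% of the 48, beside 28.7% of all genes (13.2% higher and 15.5% lower). The log2 fold changes were 0.75 for RAE1 (adjusted p = 0.0127; 0.0992 without xpo4-2 replicate 2) and 0.74 for CG1 (adjusted p = 0.0153; 0.116 without xpo4-2 replicate 1 and 0.0518 without double mutant replicate 1). Each of the 10 calls was lost without 1 or other of the 2 xpo4-2 libraries, with adjusted p between 0.0506 and 0.217, in a fit that takes the library left to vary like the other groups. The median log2 fold change was 0.09 over the 48 and 0.03 over all genes. Without xpo4-2 replicate 1 these medians were 0.04 and 0.04, and without replicate 2 they were 0.07 and 0.05. With library totals 12 rose and 0 fell, or 25.0% higher, against 22.5% of all genes. On TPM 15 rose and 0 fell, or 31.2% higher, against 27.9% of all genes.

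Among transcript models, 5 of 62 passed. Of 87 models of the 49 genes, 62 reached 1 TPM in 2 libraries and were tested with limma on log2(TPM + 0.5). Between the double mutant and cpr5, 5 rose and 0 fell, or 8.06% of the 62, against 11% of all 45917 models tested (7.51% higher and 3.53% lower). Of all models that passed, 68.0% rose. At an unadjusted p under 0.05 limma had 23 higher and 1 lower, and the share of all models at that p was not computed. The count that rose was 0 without cpr5 replicate 1 or 2 or double mutant replicate 3, and 1 without cpr5 replicate 3 or double mutant replicate 1. It was 12 without wild-type replicate 1 and 11 without replicate 3, where 9.79% and 9.61% of all models rose. It was 3 without wild-type replicate 2 and 2 without either xpo4-2 library. The 5 were the first models of NUP155 (AT1G14850.1, log2 fold change 0.95), CG1 (AT1G75340.1, 0.70), NUA (AT1G79280.1, 1.16), NUP96 (AT1G80680.1, 0.92) and HST (AT3G05040.1, 0.92). On this scale the median was 0.48 over models of these genes and 0.24 over all models. IMPA6 differed in its make-up: its second model held 12.2% to 37.0% of its TPM in the double mutant and 18.5% to 78.5% in wild type, but 0 to 1.11% in cpr5 and 0 to 6.82% in xpo4-2. That model did not pass (1.83 between the double mutant and cpr5 on the log2 scale, adjusted p = 0.0543).

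To show the sequence upstream of genes that moved, the 250 bases before the start are printed for 5 of the 9 genes called against cpr5, each with no other annotated gene in that window. These are NUP133 (chr2:1846950-1847199, minus strand), HST (chr3:1408303-1408552, minus), PSD (chr1:27330032-27330281, minus), IMPA6 (chr1:583884-584133, plus) and CAS (chr2:19096163-19096412, plus). They are from the TAIR10.1 assembly, 5′ to 3′ on the strand of the gene, with the W box core TTGAC, the element bound by WRKY factors, in capitals on either strand.
NUP133: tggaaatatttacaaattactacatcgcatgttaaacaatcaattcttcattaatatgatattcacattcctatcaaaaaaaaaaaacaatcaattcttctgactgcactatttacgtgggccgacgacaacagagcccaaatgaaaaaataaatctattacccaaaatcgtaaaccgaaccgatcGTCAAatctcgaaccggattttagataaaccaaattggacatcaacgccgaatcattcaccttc
HST: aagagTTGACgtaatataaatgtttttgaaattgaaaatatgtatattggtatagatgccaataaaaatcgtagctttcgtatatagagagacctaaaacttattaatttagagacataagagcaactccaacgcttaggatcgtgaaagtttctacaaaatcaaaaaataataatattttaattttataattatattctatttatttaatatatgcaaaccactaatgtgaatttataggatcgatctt
PSD: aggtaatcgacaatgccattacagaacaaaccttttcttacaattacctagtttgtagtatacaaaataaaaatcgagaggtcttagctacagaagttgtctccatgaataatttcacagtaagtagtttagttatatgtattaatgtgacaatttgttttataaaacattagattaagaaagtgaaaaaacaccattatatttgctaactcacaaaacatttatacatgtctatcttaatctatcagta
IMPA6: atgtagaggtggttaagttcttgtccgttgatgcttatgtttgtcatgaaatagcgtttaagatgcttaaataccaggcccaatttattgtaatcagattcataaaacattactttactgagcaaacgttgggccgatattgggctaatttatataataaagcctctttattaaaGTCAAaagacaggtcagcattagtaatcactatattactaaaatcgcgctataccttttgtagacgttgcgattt
CAS: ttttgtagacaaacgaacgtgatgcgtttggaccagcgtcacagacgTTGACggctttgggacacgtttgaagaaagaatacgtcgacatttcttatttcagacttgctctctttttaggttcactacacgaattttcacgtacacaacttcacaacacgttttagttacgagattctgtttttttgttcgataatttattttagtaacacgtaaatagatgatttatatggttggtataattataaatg

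The core was found in NUP133, HST, IMPA6 and CAS and not in PSD. In windows from 250 bases before to 50 after the start, on both strands, it was found in 5 of the 7 genes that rose against cpr5, in 53.1% of the 49 and in 50.5% of all 27443 promoters. TGACG, the core bound by TGA factors, which overlaps the W box core wherever a G follows it, was in 5 of the 7, 34.7% of the 49 and 23.1% of all. TGGGCC and TGGGCT, the site II elements, were in 4 of the 7 each. They were in 30.6% and 24.5% of the 49, against 15.5% and 14.2% of all. AAACCCT, the telo box, was in 1 of the 7, 20.4% of the 49 and 10.0% of all. These are matches of letters and were not tested.

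A further list of 44 genes that work beside the 49 was followed. It held Ran-binding proteins, other karyopherins, the outer-ring subunits SEC13A and SEC13B, mRNA export factors and proteins of the nuclear envelope. Of 41 tested, 4 rose in the double mutant against cpr5 and 1 fell. These are 12.2% of the 41, against 21.7% of all genes, with 9.76% higher and 2.44% lower, against 8.82% and 12.9% of all genes. Of the 12 mRNA export genes, THP1 (log2 fold change 0.62), ALY4 (0.54) and THO2 (0.57) rose, 1 fell and 8 did not pass. Of the 13 genes of the nuclear envelope, WIT1 (0.69), whose product anchors RanGAP there, rose and 12 did not pass. SAC3A, a partner of THP1 in the export complex TREX-2, fell by 1.70 (SE 0.286, adjusted p = 0.0025). SAC3A had 5.14, 5.88 and 10.2 CPM in the double mutant, against 24.3, 20.8 and 23.8 CPM in cpr5, and 5.67 and 4.66 CPM in xpo4-2, against 29.5, 26.9 and 47.1 CPM in wild type. It was low in the 5 libraries with the xpo4-2 mutation and did not overlap the other 6. Of the 5 Ran-binding genes 0 passed with edgeR (3 at an unadjusted p under 0.05, and 2 with DESeq2), and of the 9 other karyopherins 0 passed by any of these counts.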

How the data were processed

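Per the labels, strand-specific mRNA libraries were made from total RNA of whole seedlings. The deposited count table holds raw counts per gene by its name, and the submitters' processing notes name the TAIR10 genome, HTSeq 0.6.1p1 and HISAT2 2.0.4 without their roles. The deposited TPM table lists 71164 transcript models, and its name credits kallisto. In 5998 genes with 1 model and at least 100 counts in every library, the ratio of count to TPM varied over libraries by a median of 0.546%, against a counting error of 4.03%. The deposited counts may therefore be rounded estimated counts from the same quantification and not counts of reads by HTSeq; they were tested as deposited, and TPM is no independent measurement. The sources used here do not say how strand and multiply matching reads were handled.

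Group and replicate came from the titles. Counts were filtered with filterByExpr (580 genes removed), scaled with TMM factors (0.907 to 1.18) and tested with edgeR 4.0.16 in R 4.3.3, in 1 quasi-likelihood fit of all 11 libraries with 1 term per genotype. The threshold was 0.05 after Benjamini-Hochberg adjustment over all genes. The biological coefficient of variation was 0.305. On simulated data drawn for 21580 genes, the double mutant against cpr5 recovered 30% of genes changed 2-fold and 66% of genes changed 4-fold. In it 200 genes, drawn at random from all levels, were changed, whereas 21.7% of all genes passed in the data. The adjusted threshold depends on how many genes change, so these shares do not give the power for the 48 genes. TPM was tested with limma 3.58.1 on log2(TPM + 0.5), which understates changes of low values. DESeq2 1.42.0, other scalings and filters, and leaving out each library were alternatives. Counts without molecular identifiers are not independent molecules.

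The genes, lists and tests were chosen with earlier results of these data known. Values per library are given for genes that passed against cpr5, for the 5 largest that passed in each other comparison, and, whatever their call, for RAN1, RAN2, RAN3, XPO1A, XPO1B, IMPA3, NUP96, NUP88, MOS14 and CAS. NUP98a and KPNB1 are shown beside them and were chosen after their values were seen. Replicate numbers did not pair samples: of 15 pairs of equal number, 1 had a correlation of deviations over 0.1. Positions and sequences are from RefSeq's TAIR10.1 (all 49 loci matched). For 18 loci that reference holds no symbol, and common Arabidopsis names were used. One upstream sequence that meets the rule for those printed is not reported here.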

Additional observations from a re-analysis of the deposited data

Results flagged for a closer look

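For 2 of the 48 genes, the effect of xpo4-2 in the cpr5 background differed from its effect in the wild-type background by edgeR's test of that difference. This is 4.17% of the 48, against 8.71% of all genes, and 0 passed without any 1 of the cpr5 libraries. For IMPA6 the difference was -1.63 on the log2 scale (adjusted p = 0.0252), with -0.81 in cpr5 and 0.83 in wild type. For NUP35 it was -0.66 (adjusted p = 0.0279), with -0.11 in cpr5 and 0.55 in wild type. The 0.83 of IMPA6 in wild type and the -0.11 of NUP35 in cpr5 did not pass. Both differences rest on 2 xpo4-2 libraries, and no group had enough samples to test whether a single sample lay far from the others.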

How the results depend on the processing

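Of the calls among the 48 genes, those kept under all alternatives were NUP96 and HST of 9 in the double mutant against cpr5, XPO1B of 2 in cpr5 against wild type, 0 of 2 in xpo4-2, 12 of 16 in the double mutant against wild type, 0 of 10 against xpo4-2 and 0 of 2 in the interaction. Counts below are genes that rose, then fell. Of all genes, 19.7%, 30.1% and 22.5% rose with library totals in the double mutant against cpr5, wild type and xpo4-2. On TPM with a pseudocount of 0.5 these shares were 24.8%, 37.2% and 27.9%. In the double mutant against cpr5 (7 and 2), library totals gave 14 and 0, TPM 18 and 0 with a pseudocount of 0.5 or 0.1, and DESeq2 gave 4 that fell. In cpr5 against wild type (1 and 1), at least 1 CPM in 3 libraries gave 2 that rose, DESeq2 3 and 2, and TPM 2 that rose. Of all genes, 4.72%, 7.04% and 5.12% rose in these settings. In xpo4-2 against wild type (1 and 1), TPM gave 0 that rose with either pseudocount, the groups fitted alone 0 and 0, and the replicate block 0 that rose. Against wild type in the double mutant (14 and 2), library totals gave 22 and 1, TPM 30 and 1 (29 and 1 with 0.1), and the groups alone 1 that fell. Against xpo4-2 (7 and 3), library totals gave 12 and 0, TPM 15 and 0 (14 and 0 with 0.1), and DESeq2 5 that fell. In the interaction (0 and 2; 2 and 6 at an unadjusted p under 0.05 with edgeR, 0 and 2 with DESeq2), library totals gave 1 and 1, TPM 0 that fell with either pseudocount, and the replicate block 1. For transcript models (5 and 0), no TPM filter gave 9 and 1, the groups alone 15 and the replicate block 3. Of all models, 5.31%, 13.2% and 6.86% rose in these settings.

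Leaving out each replicate in turn gave 2 to 8 that rose and 0 to 3 that fell against cpr5, 1 to 3 and 0 to 1 in cpr5, 0 to 1 and 0 to 1 in xpo4-2, 12 to 17 and 1 to 3 in the double mutant against wild type, 2 to 9 and 1 to 4 against xpo4-2, 0 to 0 and 0 to 3 in the interaction, and 0 to 12 and 0 to 0 for models. Some signs turned, none of a value that had passed except IMPA3 against wild type. In the double mutant against cpr5, IMPA3 was 0.02 on TPM with either pseudocount, XPO1B was 0.08 with library totals and 0.16 on TPM, and RAN3 was 0.05 and 0.14. Between the double mutant and wild type, IMPA3 was 0.05 on TPM. In cpr5 against wild type, IMPA3 was 0.02 or 0.03 on TPM, and NUP96 ran from -0.01 without wild type replicate 1 to 0.13 without wild type replicate 3. Equal replicate numbers deviated together by correlations of -0.088 to 0.214, which does not pair the samples. The cause of these changes was not tested. With 2 or 3 libraries a group, small changes are often below what this depth and spread can show.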
